A study of Mus musculus with 17 samples.

Results

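The genes described are 10 genes of interleukin-1 (IL-1) and of the inflammasome: Il1a, Il1b, Il1rn, Il1r1, Il1r2, Il1rap, Nlrp3, Pycard, Casp1 and Gsdmd. They were chosen by name from the 21931 genes of the authors' RNA-seq table, and all 10 are in it. The RNA came from the distant, non-ablated tumor of C57BL/6J mice that carried wild-type MC38 tumors, a mouse colon cancer line, under the skin on both sides. The mice were 6 to 8 weeks old, and MC38 cells were implanted at each site. In the cryoablation group (8 tumors), freezing was applied on day 7 to the tumor of one side, when tumors were about 5 to 6 mm wide, in 2 cycles that the labels give as 20 s each. The contralateral tumor was taken 5 days later, and the control group (9 tumors) was taken at the same time. Group sizes follow the labels, whereas the text of the paper gives them the other way round. The labels do not say whether the control mice were sham-treated, nor whether each tumor came from a mouse of its own, so p values measure the spread between these samples. All tumors came from 1 cell line in 1 mouse strain. The question was whether freezing a tumor on one side changed the expression of these genes in the tumor on the other side.

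IL-1α and IL-1β are cytokines that bind the same receptor and drive fever, endothelial activation and the recruitment of neutrophils and monocytes. IL-1β is made as an inactive precursor. A sensor such as NLRP3 assembles with the adaptor ASC into an inflammasome, which activates caspase-1, and caspase-1 cleaves pro-IL-1β and gasdermin D, whose fragment forms pores in the plasma membrane. The receptor antagonist (Il1rn) and the decoy receptor (Il1r2) oppose the signal. In tumors, IL-1β comes largely from myeloid cells. These steps after transcription are not measured by RNA-seq, which gives the level of the transcripts and not of the cleaved proteins.

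Sequences are shown for a pair of ligand genes that lie near each other on chromosome 2 and whose levels moved together over tumors (Il1a and Il1b), and for the adaptor and the caspase, which also moved together (Pycard and Casp1). They are the 250 bases before the start site in RefSeq on GRCm38.p6, written 5′ to 3′ on the strand of the gene: chr2:129309973-129310222 (minus strand) for Il1a, chr2:129371140-129371389 (minus) for Il1b, chr7:127993868-127994117 (minus) for Pycard and chr9:5298267-5298516 (plus) for Casp1. Capitals mark matches on either strand to TATAAA, to the AP-1 motif TGANTCA or to the PU.1 core GAGGAA.
Il1a: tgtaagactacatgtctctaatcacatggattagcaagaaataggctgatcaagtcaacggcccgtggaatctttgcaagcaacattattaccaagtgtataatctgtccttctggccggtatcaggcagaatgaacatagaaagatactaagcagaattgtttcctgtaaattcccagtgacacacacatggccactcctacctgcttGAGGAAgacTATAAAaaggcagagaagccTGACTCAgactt
Il1b: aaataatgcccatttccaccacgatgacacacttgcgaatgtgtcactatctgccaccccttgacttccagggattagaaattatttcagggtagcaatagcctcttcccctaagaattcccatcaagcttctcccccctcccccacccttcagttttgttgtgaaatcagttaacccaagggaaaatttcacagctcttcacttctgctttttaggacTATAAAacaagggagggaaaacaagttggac
Pycard: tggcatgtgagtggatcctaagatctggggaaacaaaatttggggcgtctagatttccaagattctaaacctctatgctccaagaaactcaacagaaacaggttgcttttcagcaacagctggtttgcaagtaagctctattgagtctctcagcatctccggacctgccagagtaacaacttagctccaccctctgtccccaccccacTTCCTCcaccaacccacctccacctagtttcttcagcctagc
Casp1: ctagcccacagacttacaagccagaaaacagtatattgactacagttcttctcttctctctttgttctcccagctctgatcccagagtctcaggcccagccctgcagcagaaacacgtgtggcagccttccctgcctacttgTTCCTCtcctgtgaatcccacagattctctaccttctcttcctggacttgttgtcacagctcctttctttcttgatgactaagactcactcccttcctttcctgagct
A match is a description of the letters and not a bound site. TATAAA began 32 bases before the start of Il1a and 31 bases before that of Il1b, and in the 250 bases before the start of none of the other 7 members with a RefSeq entry. Gsdmd was not matched. Of all 27025 promoters of the same length, 13% held TATAAA, 6.87% the AP-1 motif and 23.1% the PU.1 core. The AP-1 motif began 12 bases before the start of Il1a, and the PU.1 core 41, 42 and 108 bases before those of Il1a, Pycard and Casp1. A κB motif (NF-κB consensus, in 7.01% of all promoters) was searched as well. It was not found in these 4 windows, which says only that its letters are not there.

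Total counts were 14154687 to 17898672 in the control group and 13524899 to 16847050 in the cryoablation group, and no pair of tumors had identical counts. Values are CPM, the counts scaled to a common library total, after scaling by edgeR's trimmed mean of M values (TMM). Of the 21931 genes, 13005 passed the filter on low counts, the 10 members among them. Over all 13005 genes the median log2 fold change of cryoablation over control was -0.01. Cryoablation tumors 2, 4 and 5 stood apart by gene length: their log2 CPM fell by 0.30, 0.27 and 0.39 per doubling of gene length relative to the mean tumor, against slopes from -0.168 to 0.231 in the other 14 tumors. The leukocyte marker Ptprc (CD45) had 209 CPM in control tumor 4 and at most 135 in the others. Markers that colon epithelium can carry were uneven. Cdx2 had 0 counts in all 17 tumors and Epcam 0.482 to 8.67 CPM, whereas the keratins Krt8, Krt18 and Krt19 reached 58.8, 54.8 and 91.6 CPM, all in cryoablation tumor 5. The 10 markers summed to 159, 150 and 229 CPM in cryoablation tumors 2, 4 and 5, to 20.5 to 72.1 CPM in the other cryoablation tumors and to 25.9 to 107 CPM (median 38.5) in the control tumors, so these 3 tumors stood apart in this respect too.

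No difference between the cryoablation and the control tumors was detected for any of the 10 genes. In edgeR's quasi-likelihood test 0 of 10 had an adjusted p under 0.05 (0% of all genes tested) and 0 of 10 an unadjusted p under 0.05 (4.91% of all genes tested). DESeq2 and limma voom likewise called 0 members at either threshold. Of the 10, 5 had a higher and 5 a lower mean in edgeR, and their median log2 fold change was 0.01. The split depended on the fit: 5 were higher in DESeq2 (median 0.02), 2 in voom (median -0.17) and 3 with the replicate number as a block in edgeR (median -0.07). For each gene, cryoablation tumors lay on both sides of the control median. The 95% intervals of the fold changes were wide, from -0.05 to 0.60 on the log2 scale for Gsdmd and from -0.79 to 1.14 for Il1a, so a 2-fold higher level of Il1a lay inside its interval. In bulk tissue, fewer cells of a type and less RNA per cell cannot be told apart.

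**Figure D1:**
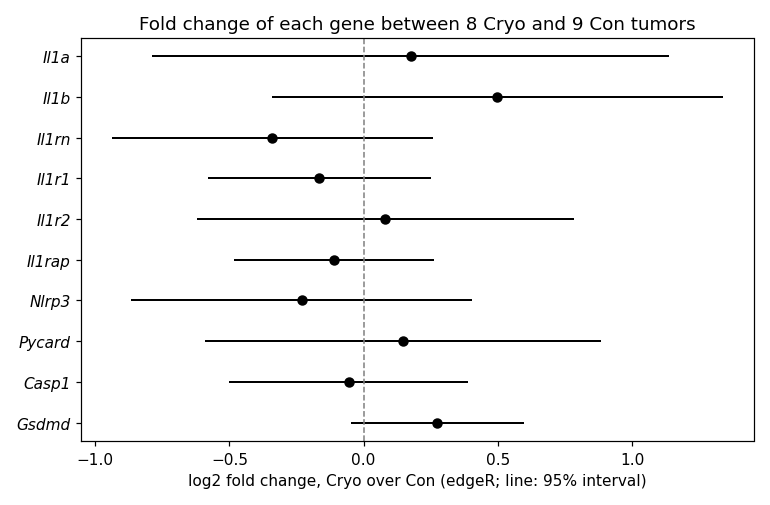
The log2 fold change of cryoablation (Cryo, 8 tumors) over control (Con, 9 tumors) is plotted for each of the 10 genes, as edgeR's estimate (point) with its 95% interval (line). All 10 intervals include 0, and the point furthest from 0 is Il1b at 0.50.

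Il1a and Il1b encode the ligands. Il1a (ENSMUSG00000027399; listed by the authors at chromosome 2, 129141530 to 129151892, minus strand) had a lowest, median and highest level of 1.61, 3.29 and 8.76 CPM in the control tumors, and of 1.56, 2.77 and 17.6 CPM in the cryoablation tumors. Of the 8 cryoablation tumors, 7 were at or below 3.55 CPM, and only tumor 7 exceeded the control range. The means were 3.93 ± 2.18 (SD, n = 9) and 4.43 ± 5.36 (n = 8) CPM, a log2 fold change of 0.18 ± 0.46 (SE, edgeR adjusted p = 0.889), whereas the mean of the log2 levels differed by -0.13 (exact permutation p = 0.773), so the sign depended on the scale. Without cryoablation tumor 7 the log2 fold change was -0.63. Il1b (ENSMUSG00000027398; chromosome 2, 129206490 to 129213059, minus strand) had 9.26, 21.3 and 59.5 CPM as lowest, median and highest level in the control tumors and 14, 33.5 and 110 in the cryoablation tumors. Of the 8 cryoablation tumors, 6 were above the control median, 5 of them between 25.9 and 34.8 CPM. Control tumors 3 and 4, with 50.9 and 59.5 CPM, were above every cryoablation tumor but tumor 7. The means of 26.7 ± 16.9 and 37.7 ± 30.3 CPM gave a log2 fold change of 0.50 ± 0.40 (edgeR adjusted p = 0.739, exact permutation p = 0.323). Without cryoablation tumor 7 it was 0.03.

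**Figure D2:**
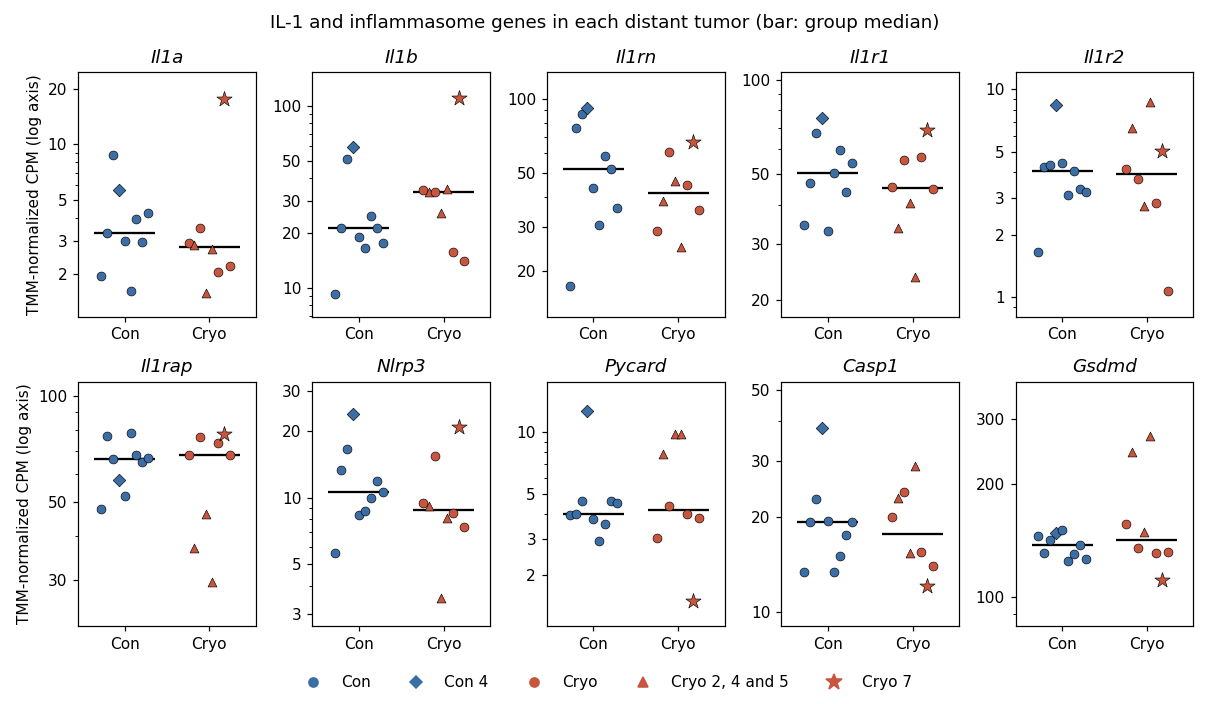
TMM-normalized CPM (log axis) of each gene in each tumor of the control (Con) and cryoablation (Cryo) group, with bars at the group medians, diamonds for control tumor 4, triangles for cryoablation tumors 2, 4 and 5 and stars for cryoablation tumor 7. The groups overlap in all 10 panels. Tumor 7 is the highest for Il1a (17.6 CPM) and Il1b (110 CPM) and the lowest for Pycard (1.51), Casp1 (12.1) and Gsdmd (111).

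Il1rn encodes the receptor antagonist, which occupies the receptor without signaling. Il1rn (ENSMUSG00000026981; chromosome 2, 24226865 to 24241506, plus strand) ranged from 17.3 to 92.1 CPM with a median of 51.7 in the control tumors, and from 25.0 to 66.6 CPM with a median of 41.5 in the cryoablation tumors. All 8 cryoablation tumors lay inside the control range, and 6 of them lay below the control median. The log2 fold change was -0.34 ± 0.28 (edgeR adjusted p = 0.746, exact permutation p = 0.460).

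The balance of ligand and antagonist was compared within each tumor as the log2 ratio of Il1b to Il1rn CPM, which does not depend on the scaling between tumors. The control tumors ranged from -1.83 to -0.63 with a mean of -1.08 ± 0.35 (SD, n = 9), and the cryoablation tumors from -1.50 to 0.72 with a mean of -0.41 ± 0.84 (n = 8). In cryoablation tumors 1, 5 and 7 Il1b had more CPM than Il1rn (log2 ratios 0.24, 0.48 and 0.72), which was so in no control tumor. CPM take no account of gene length, so a log2 ratio of 0 does not mark equal levels of the 2 transcripts. Per gene length, Il1b was above Il1rn in 16 of the 17 tumors. Cryoablation tumors 6 and 8 (-1.50 and -1.32) lay below the control median. The difference of 0.67 had an exact permutation p of 0.0459, and an adjusted p of 0.0918 over the 2 ratios tested, so it did not pass after correction. Once each tumor's trend over gene length was removed, an alternative added after the data were seen, the difference was 0.48 (exact permutation p = 0.150), and without cryoablation tumors 2, 4 and 5 it was 0.54 (p = 0.152). Il1b and Il1rn are listed at lengths of 1907 and 5535 bases. Leaving out 1 tumor gave differences from 0.51 (without cryoablation tumor 7) to 0.83 (without cryoablation tumor 6), and the exact p was over 0.05 in 11 of the 17 cases.

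**Figure D3:**
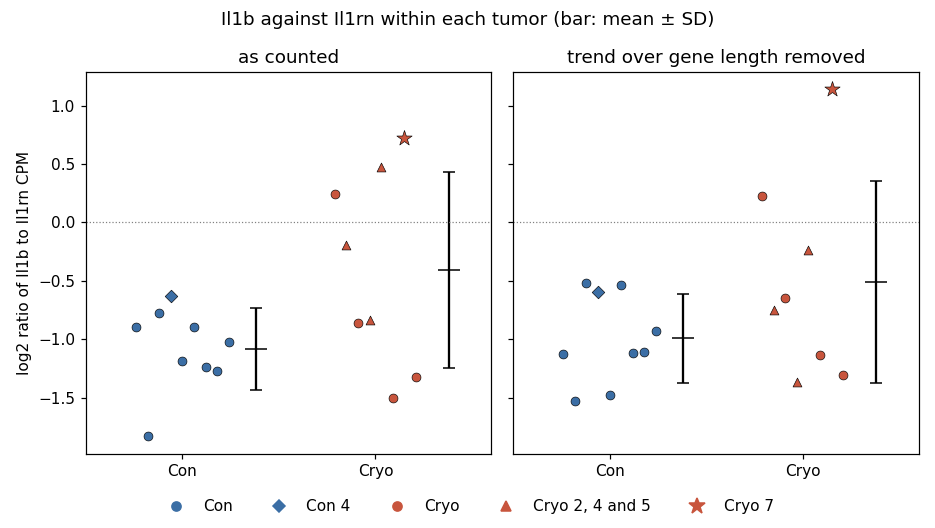
The log2 ratio of Il1b to Il1rn CPM is plotted for each tumor by group, from the levels as counted (left) and after removing each tumor's trend over gene length (right), with bars at the mean ± SD. The group means are -1.08 and -0.41 on the left and -0.99 and -0.51 on the right. Cryoablation tumor 7 (star) is the highest in both panels.

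Il1r1 is the signaling receptor, Il1rap its accessory chain and Il1r2 a decoy that binds ligand without signaling. Il1r1 (ENSMUSG00000026072; chromosome 1, 40264240 to 40356417, plus strand) had 33.1, 50.6 and 75.6 CPM as lowest, median and highest level in the control tumors and 23.5, 45.2 and 69.1 in the cryoablation tumors. Its log2 fold change was -0.16 ± 0.20 (edgeR adjusted p = 0.789, exact permutation p = 0.412). Il1rap (ENSMUSG00000022514; chromosome 16, 26400454 to 26548867, plus strand) had 47.9, 66.5 and 78.6 CPM in the control tumors and 29.6, 68.0 and 77.9 in the cryoablation tumors. Cryoablation tumors 2, 4 and 5 had the 3 lowest Il1rap levels of all 17 tumors (36.9, 46.4 and 29.6 CPM), and the other 5 were at 67.9 CPM or more, above the control median. Between the groups its log2 fold change was -0.11 ± 0.18 (edgeR adjusted p = 0.826). Without those 3 tumors the edgeR log2 fold changes were 0.06 for Il1r1 and 0.17 for Il1rap, so their sign rested on these tumors, which also had the highest sums of epithelial markers. The listed lengths of Il1rap (11360 bases) and Il1r1 (6363 bases) are the longest of the 10, and over the 17 tumors their levels ranked with the tumors' slope over gene length (Spearman rho 0.875 and 0.750). The part of the length trend in these levels was not tested beyond the alternatives given, and that of the epithelial markers was not tested.

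Il1r2 (ENSMUSG00000026073; chromosome 1, 40113239 to 40164391, plus strand) was among the least abundant, with 1.64, 4.05 and 8.41 CPM as lowest, median and highest level in the control tumors and 1.07, 3.92 and 8.68 in the cryoablation tumors. Cryoablation tumors 8 and 5 were the lowest and the highest of all 17. Its log2 fold change was 0.08 ± 0.34 (edgeR adjusted p = 0.928), and the mean of the log2 levels differed by -0.008 (exact permutation p = 0.983). The log2 ratio of Il1r2 to Il1r1 was -3.69 ± 0.46 in the control and -3.51 ± 1.16 in the cryoablation tumors, a difference of 0.17 (exact permutation p = 0.696, adjusted p = 0.696 over the 2 ratios). Its sign turned without cryoablation tumor 5 (-0.12), and the cryoablation tumors spread over a wider range (-5.23 to -1.43) than the control tumors (-4.29 to -2.86).

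Nlrp3 encodes the sensor, whose transcript is itself induced by inflammatory signals. Nlrp3 (ENSMUSG00000032691; chromosome 11, 59432394 to 59457782, plus strand) had 5.60, 10.6 and 23.7 CPM as lowest, median and highest level in the control tumors and 3.51, 8.80 and 20.8 in the cryoablation tumors. Of the cryoablation tumors, 6 were below the control median, while tumors 3 and 7 (15.3 and 20.8 CPM) were among the 4 highest of all. Between the groups its log2 fold change was -0.23 ± 0.30 (edgeR adjusted p = 0.797, exact permutation p = 0.403). Pycard, which encodes the adaptor ASC (ENSMUSG00000030793; chromosome 7, 127588880 to 127593039, minus strand), had 2.93, 3.99 and 12.6 CPM in the control tumors and 1.51, 4.17 and 9.84 in the cryoablation tumors. Of the 9 control tumors, 8 lay between 2.93 and 4.61 CPM and control tumor 4 at 12.6, while cryoablation tumors 2, 4 and 5 had 7.83, 9.84 and 9.75 CPM and tumor 7 had the lowest level of all. The log2 fold change of 0.15 ± 0.35 (edgeR adjusted p = 0.880) became -0.57 without tumors 2, 4 and 5, the same 3 with the most epithelial marker RNA.

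Casp1 encodes caspase-1, the protease of the inflammasome. Casp1 (ENSMUSG00000025888; chromosome 9, 5298508 to 5307290, plus strand) had 13.4, 19.2 and 38 CPM as lowest, median and highest level in the control tumors and 12.1, 17.7 and 28.8 in the cryoablation tumors, evenly on both sides of the control median (4 above and 4 below). The log2 fold change was -0.06 ± 0.21 (edgeR adjusted p = 0.922, exact permutation p = 0.864), with a 95% interval from -0.50 to 0.39. Gsdmd, which encodes the pore former gasdermin D (ENSMUSG00000022575; chromosome 15, 75734176 to 75739257, plus strand), was the most even gene in the control tumors, with 124, 138 and 151 CPM as lowest, median and highest level, and ranged from 111 to 269 CPM with a median of 142 in the cryoablation tumors. Cryoablation tumors 2 and 5 had 244 and 269 CPM, far above all others. The means of 137 ± 9.83 and 166 ± 58.0 CPM gave a log2 fold change of 0.27 ± 0.15 (edgeR p = 0.0915, adjusted p = 0.728, exact permutation p = 0.249). It was -0.05 without cryoablation tumors 2, 4 and 5, and 0.33 with an unadjusted edgeR p of 0.0360 without cryoablation tumor 7. Without tumor 7, 10.1% of all genes tested had an unadjusted p under 0.05. Gsdmd levels ranked against the slope over gene length (Spearman rho -0.828, n = 17), and Gsdmd is listed at 2377 bases.

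Per gene length the members spanned a wide range. In FPKM, which divide each count by the listed gene length and the library total, Gsdmd was the highest, with 59.6 ± 3.82 in the control and 65.5 ± 14.5 in the cryoablation tumors, above 94.2% of the genes tested. It was followed by Il1b (14.7 ± 9.63 and 19.4 ± 17.1 FPKM), Il1rn (10.4 ± 5.18 and 7.73 ± 3.21) and Il1r1 (8.52 ± 2.64 and 7.25 ± 2.86). Casp1, Il1rap and Nlrp3 had means of 6.54, 5.90 and 3.12 FPKM in the control tumors, and Il1r2, Il1a and Pycard had 2.22, 2.09 and 1.35. The order rests on the listed lengths. Pycard is listed at 3800 bases, almost its whole listed span from 127588880 to 127593039. Of the 9 pairs of neighbours in this order, 3 differed within tumors by an exact sign-flip permutation test over the 17 tumors: Gsdmd over Il1b, Il1b over Il1rn and Il1rap over Nlrp3 (adjusted p = 0.000137, 0.000366 and 0.000137, each in 16 of 17 tumors). The other 6 pairs did not differ beyond their spread (adjusted p from 0.102 to 0.371). The order of neighbours was thus not resolved within Il1rn, Il1r1, Casp1 and Il1rap or within Nlrp3, Il1r2, Il1a and Pycard. Genes that are not neighbours in the order were not compared. Without cryoablation tumor 5, 5 pairs differed.

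The members also differed in how much they varied from tumor to tumor. edgeR's biological coefficient of variation was 0.638 for Il1a and 0.561 for Il1b, higher than that of about 97.6% and 95.7% of the genes tested, and 0.494 for Pycard. It was 0.231 for Gsdmd and 0.262 for Il1rap, at the 45.2 and 55.7 percentile. The highest tumor exceeded the lowest 11.9-fold for Il1b and 11.3-fold for Il1a, and 2.65-fold for Il1rap and 2.42-fold for Gsdmd.

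A few tumors carried the extremes. Control tumor 4 was among the 3 highest tumors for 8 of the 10 genes and the highest of all for Il1rn, Il1r1, Nlrp3, Pycard and Casp1. Control tumor 1 was among the 3 lowest for 6 of them and the lowest for Il1b and Il1rn. Cryoablation tumor 7 was the highest of all for both ligands and second for Il1r1, Il1rap and Nlrp3, and yet it was the lowest of all for Pycard, Casp1 and Gsdmd.

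**Figure D4:**
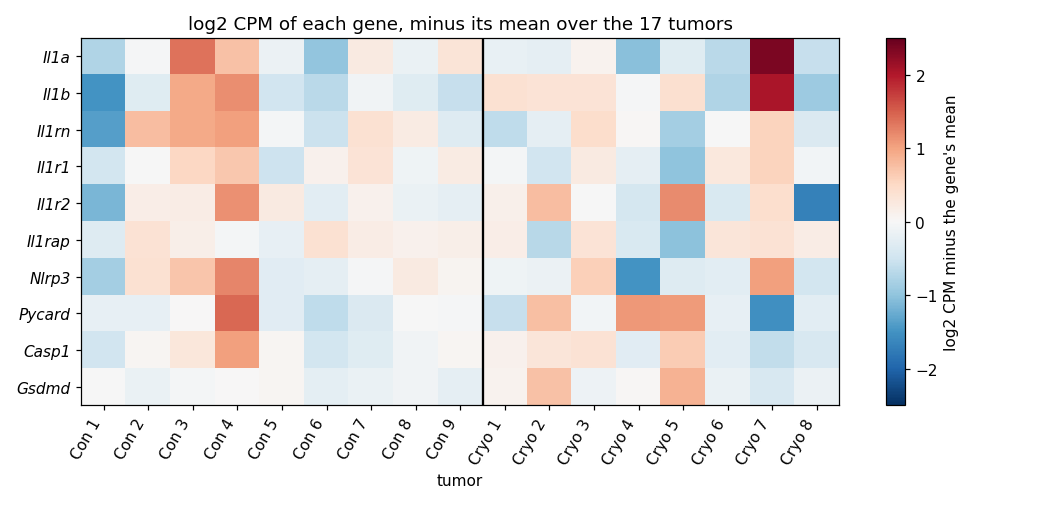
The log2 CPM of each gene (rows) minus the gene's mean over the 17 tumors is shown as color for each tumor (columns, control left of the line and cryoablation right of it). Cryoablation tumor 7 is far above the mean for Il1a and Il1b and below it for Pycard, Casp1 and Gsdmd, and control tumor 4 is above it for most genes.

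Across tumors the 10 genes did not move as 1 group. Relations were tested for 15 fixed pairs by Pearson's r and Spearman's rho with 100000 permutations over the 17 tumors, and p values were adjusted over the 15. Il1b rose with Il1a (r = 0.805, permutation adjusted p = 0.000825; rho = 0.581, adjusted p = 0.0273). Without the 2 tumors farthest from the median of Il1b, cryoablation tumor 7 and control tumor 1, r was 0.643. Within the groups r was 0.844 in the control and 0.879 in the cryoablation tumors (exact p = 0.00681 and 0.0133). Il1b also rose with Il1r2 (r = 0.695, rho = 0.797, permutation adjusted p = 0.00431 and 0.00165; 0.720 without the 2 farthest tumors; 0.871 and 0.627 within the control and cryoablation groups). It rose with Nlrp3 as well (r = 0.671, rho = 0.593, permutation adjusted p = 0.00580 and 0.0268; 0.517 without the 2 farthest), with r = 0.936 among the control tumors (exact p = 0.000419) and 0.637 among the cryoablation tumors (exact p = 0.0988). Il1b and its antagonist Il1rn gave r = 0.601 and rho = 0.500 (permutation adjusted p = 0.0154 and 0.0587). It was 0.447 (permutation p = 0.0947) without the 2 farthest tumors and 0.476 (p = 0.0611) without control tumor 1 alone, whereas it was 0.603 without cryoablation tumor 7, so the call depended on control tumor 1. Within the groups r was 0.903 among the control tumors (exact p = 0.000179) and 0.395 among the cryoablation tumors (exact p = 0.344), and the difference between the groups was not tested.

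Levels of marker genes were set beside the members, as the mean log2 CPM of the tested genes of a list. The adaptor and the caspase followed the 15 macrophage and monocyte markers. Pycard had r = 0.901 and rho = 0.797 with them (permutation adjusted p = 0.000150, from a permutation p of 1e-05 that is the smallest possible, and 0.00165), 0.785 without control tumor 4 and cryoablation tumor 7, and 0.935 and 0.919 within the control and cryoablation groups (exact p = 0.00354 and 0.00243). For Casp1 r was 0.831 and rho 0.691 (permutation adjusted p = 0.000375 and 0.0108), 0.661 without the same 2 tumors, and 0.873 and 0.785 within the groups (exact p = 0.00845 and 0.0188). Both remained when each tumor's trend over gene length was removed (r = 0.808 and 0.804). Casp1 and Pycard rose together (r = 0.711, rho = 0.637, permutation adjusted p = 0.00369 and 0.0194), with r = 0.910 and 0.598 within the groups (exact p = 0.00332 and 0.118). Without both of the farthest tumors r was 0.463 (permutation p = 0.0833), whereas it was 0.586 without control tumor 4 alone and 0.655 without cryoablation tumor 7 alone (p = 0.0160 and 0.00631), so of these 3 settings the call was lost in the one without both.

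Il1b did not follow the same markers over all tumors (r = 0.162, rho = 0.475, permutation adjusted p = 0.590 and 0.0624), and this turned on cryoablation tumor 7, where Il1b was highest and the summed macrophage and monocyte markers were lowest (1540 CPM, against 2220 to 5740 in the control tumors). Without that tumor r was 0.739, among the control tumors it was 0.753 (exact p = 0.0197) and among the cryoablation tumors -0.355 (exact p = 0.379). Il1b rose with the neutrophil list instead (r = 0.687, rho = 0.750, permutation adjusted p = 0.00431 and 0.00375; 0.730 without cryoablation tumor 7 and control tumor 1). Within the groups r was 0.697 (exact p = 0.0370) and 0.632 (exact p = 0.112). Il1r2 rose with it as well (r = 0.686, rho = 0.537, permutation adjusted p = 0.00431 and 0.0423), with r = 0.640 and 0.777 within the groups (exact p = 0.0629 and 0.0304). Without both cryoablation tumor 8 and control tumor 1, r was 0.482 (permutation p = 0.0688), whereas it was 0.558 without the former and 0.662 without the latter. The neutrophil list is weakly measured: 8 of its 14 genes passed the filter, its defining marker Ly6g had at most 3 counts in every tumor, and its summed level was 28.8 to 129 CPM in the control and 32.7 to 102 CPM in the cryoablation tumors. The part of neutrophils or of macrophages in any member's level was not tested.

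**Figure D5:**
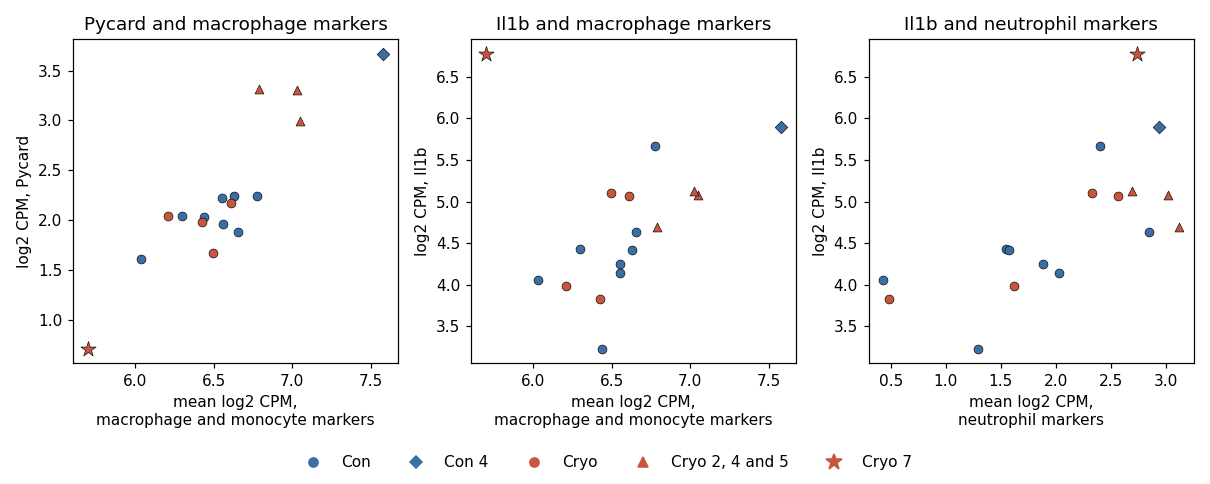
Log2 CPM of Pycard against the mean log2 CPM of the macrophage and monocyte markers (left), and of Il1b against these markers (middle) and the neutrophil markers (right), with 1 point per tumor and cryoablation tumor 7 as a star. Pycard rises with the macrophage markers over all tumors (r = 0.901), while Il1b in tumor 7 lies apart from the other 16 tumors in the middle panel (r = 0.162 with it, 0.739 without).

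Il1r1 and its accessory chain Il1rap rose together (r = 0.772, rho = 0.630, permutation adjusted p = 0.000825 and 0.0194; 0.764 without the 2 farthest tumors), with r = 0.448 in the control and 0.941 in the cryoablation tumors (exact p = 0.226 and 9.92e-05). When the trend over gene length was removed r was 0.437 (permutation p = 0.0801), and without cryoablation tumors 2, 4 and 5 it was 0.502 (p = 0.0677). Il1r1 and the fibroblast markers gave r = 0.536 and rho = 0.480 (permutation adjusted p = 0.0345 and 0.0624), which also lost its call without the 2 farthest tumors (0.462) and without the length trend (0.239). The call was lost as well without control tumor 3, 4 or 5 alone (r = 0.497, 0.402 and 0.493). For this pair r was 0.796 in the control tumors (exact p = 0.0109) and 0.0711 in the cryoablation tumors (exact p = 0.872). Casp1 and Gsdmd gave r = 0.548 and rho = 0.620 (permutation adjusted p = 0.0339 and 0.0197). For this pair r was 0.641 without the 2 farthest tumors and 0.421 (permutation p = 0.0933) without the length trend. It was 0.429 without cryoablation tumor 5 alone and 0.489 without cryoablation tumor 7 alone (permutation p = 0.0954 and 0.0547), so either omission lost the call. The other 2 relations, of Nlrp3 and of Il1rn with the macrophage and monocyte markers, did not pass over all tumors (r = 0.0559 and 0.157, rho = 0.0588 and 0.191, permutation adjusted p of r = 0.832 and 0.590). Within the groups the signs were opposite. For Nlrp3 r was 0.720 in the control tumors (exact p = 0.0366) and -0.555 in the cryoablation tumors (exact p = 0.151), and for Il1rn 0.569 (exact p = 0.110) and -0.585 (exact p = 0.126). The difference between the groups was not tested.

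Among the tested genes outside the members, those most like each member by Spearman's rho over the 17 tumors are given as a description, since all points share these libraries and their length trend. Il1b was most like Hdc, the enzyme that makes histamine (0.931), Cxcl3, a chemokine for neutrophils (0.887), and Dnm3 (0.843). Il1a was most like Vopp1, Igsf6 and Clec4e (0.858, 0.855 and 0.838). Il1r2 was most like Ifnar2, Clec4d and Tlr2 (0.855, 0.816 and 0.772), and Il1rn like C1s1, Gng12 and Zfp36, an RNA-binding protein that destabilizes cytokine transcripts (0.931, 0.931 and 0.929). For Nlrp3 they were Prkx, Procr and Ptprj (0.929, 0.914 and 0.907). Casp1 was like Irf5 and the MHC class II gene H2-Aa (0.880 and 0.877), and Pycard was most like Sectm1a, Prcp and Rtn4rl1 (0.904, 0.882 and 0.882). Gsdmd was most like Aif1, a marker of macrophages, Psme1, a proteasome activator, and Cep85 (0.944, 0.929 and 0.919). The receptor chains had the closest matches, Il1r1 with Pkd2l2, Tbc1d4 and Atad2b (0.956, 0.953 and 0.951) and Il1rap with Eps8, Rnf19a and Nckap1 (0.971, 0.963 and 0.963), and they are also among the members that ranked most closely with the slope over gene length.

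The genes around the members were described from 4 further lists. Of 15 other ligands and receptors of the IL-1 family, 8 were tested and 0 passed an unadjusted p under 0.05, with 2 higher, 6 lower and a median log2 fold change of -0.27. This count changed with the processing: 5 of the 8 had such a p in voom with sample quality weights, where 10.1% of all genes had one, 4 without control tumor 1 (9.89% of all genes) and 3 without cryoablation tumor 3 (10.6%), and none passed an adjusted p. Il1rl1, the receptor of IL-33, was the most abundant at 149 ± 51.0 CPM in the control and 126 ± 68.4 in the cryoablation tumors. Il18, another substrate of caspase-1, had 6.94 ± 1.56 and 8.71 ± 2.60 CPM (edgeR adjusted p = 0.728), and its receptor Il18r1 had 5.70 ± 3.46 and 3.79 ± 0.956. Sigirr, which restrains the signaling of IL-1 family receptors, had 51.4 ± 11.9 and 65.0 ± 21.7 CPM, and Il18bp, which binds IL-18, had 28.9 ± 12 and 22.1 ± 5.60. Il1f8, Il1f5, Il1f10 and Il1rapl2 had 0 counts in every tumor.

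Of 19 other inflammasome and pyroptosis genes, 17 were tested and 0 passed an unadjusted p under 0.05 (6 higher, 11 lower, median -0.09). The most abundant were Txnip, which binds thioredoxin (121 ± 25.4 and 144 ± 46.3 CPM), Ninj1, which ruptures the plasma membrane late in lysis (108 ± 32.8 and 135 ± 69.4), and Nek7, a partner of NLRP3 (105 ± 11.1 and 103 ± 19.7). Nlrp1a and Naip5 had 1.43 and 11.7 CPM in the control and 0.861 and 8.57 in the cryoablation tumors. Both have near-identical neighbours with which reads may be shared, so their values are uncertain. Of the 16 genes of receptor signal transduction, all were tested and 0 passed (5 higher, 11 lower, median -0.07). Rela and Nfkb1, which encode NF-κB subunits, had 133 ± 9.62 and 161 ± 23.2 CPM in the control and 153 ± 28.8 and 138 ± 47.2 CPM in the cryoablation tumors, and Irak3, which restrains the pathway, had 5.92 ± 4.28 and 3.77 ± 1.18. Tab2 and Ikbkb, a kinase adaptor and a kinase of the pathway, had log2 fold changes of -0.14 and -0.22.

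Of 20 genes that IL-1 is known to induce, 17 were tested, and 5 had a higher mean at an unadjusted p under 0.05 (3.74% of all genes tested were higher at this p) and 0 a lower one, with a median log2 fold change of 0.28. None passed the adjusted p (0.728 for all 5). Cxcl1, a chemokine for neutrophils, had 359 CPM in cryoablation tumor 7 and at most 13.6 in the other 16 tumors (log2 fold change 2.76 in edgeR, exact permutation p = 0.649). Il6 had 30.6 CPM there and at most 1.48 elsewhere (2.30, exact permutation p = 0.812), and Lcn2, an iron-binding protein of neutrophils and epithelia, had 33.6 and at most 14.5 (1.45, exact permutation p = 0.296). The remaining 2 of the 5, named after their values were seen, were Cxcl2, with 76.4 CPM in tumor 7 and at most 7.89 elsewhere, and Ptges, a prostaglandin synthase, with 119 ± 15.7 CPM in the control and 144 ± 27.3 in the cryoablation tumors (exact permutation p = 0.0222). Without tumor 7, 0 of the list had an unadjusted p under 0.05, whereas 10.1% of all genes tested had one. The log2 fold changes were then -0.22 for Cxcl1, -0.27 for Il6, -0.47 for Cxcl2, 0.90 for Lcn2 and 0.19 for Ptges. Of the 17 tested genes, 10 had their highest level in tumor 7, the tumor with the highest Il1a and Il1b, and 5 in control tumor 4. Of the 16 signal transduction genes 6 were highest in tumor 7, and of the 17 other inflammasome genes 1. The share of all genes tested that were highest there was not computed, and the part of IL-1 in these levels was not tested. Among the 10 genes of the list that were highest in tumor 7, also named after their values were seen, were Ptgs2, the inducible cyclooxygenase (252 CPM, at most 52.7 elsewhere), Cxcl3 (45.3 and 8.74), Nfkbiz (126 and 51.5) and Zc3h12a (67.6 and 36.5). Of the 3 most abundant of the list, Nfkbia, the NF-κB inhibitor, was highest there as well (281 and 188 CPM), with group means of 150 ± 22.6 and 154 ± 56.1. Vcam1 (232 ± 45.5 and 219 ± 61.3 CPM) and Ccl2 (187 ± 49.5 and 186 ± 60.6) were highest in control tumors.

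Marker genes of other cell types were counted in the same way. S100a8 and S100a9, calcium-binding proteins abundant in neutrophils, were 2 of 8 tested neutrophil markers with a higher mean at an unadjusted p under 0.05, against 3.74% of all genes tested (log2 fold changes 1.34 and 1.61, edgeR adjusted p = 0.728 for both, exact permutation p = 0.0554 and 0.127). Of the 8 tested markers, 5 had a higher and 3 a lower mean, with a median log2 fold change of 0.16. The lower ones were Csf3r (-0.51), Mmp8 (-0.45) and Clec4d (-0.07). The highest levels of S100a8 and S100a9 were 8.32 and 27.1 CPM, both in cryoablation tumor 7. Without that tumor the log2 fold changes of the neutrophil pair were 1.04 and 1.11 in edgeR's quasi-likelihood test, with unadjusted p = 0.0657 and 0.0939. Of 15 macrophage and monocyte markers, 1 was lower at this p (1.17% of all genes tested were), Adgre1, which encodes F4/80, with 239 CPM in control tumor 4 and at most 73.3 elsewhere. Of 4 tested keratinocyte markers, 4 had a higher mean (median log2 fold change 0.53) and 1 such a p, against 3.74% of all genes tested, Krt10 (2.5 ± 0.597 and 4.18 ± 2.06 CPM). The keratinocyte markers summed to 446, 413 and 668 CPM in cryoablation tumors 2, 4 and 5, to 207 to 270 in the other cryoablation tumors and to 183 to 447 in the control tumors. Of 6 tested MC38 and colon epithelium markers, 5 had a higher mean (median log2 fold change 1.15; Krt18 2.01, Krt19 1.85, Krt8 1.65) and 0 such a p. None of 9 dendritic cell, 8 T cell, 10 fibroblast and 8 endothelial markers had such a p. Their part in the levels of the 10 genes was not tested.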

How the data were processed

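Bulk RNA-seq of 17 distant MC38 tumors was used, grouped by the deposited labels into control (n = 9) and cryoablation (n = 8). The authors deposited a raw count of reads per gene and FPKM for 21931 genes. The FPKM equalled the count over the listed length and the tumor's total. They were used only for the order of the members. The aligner, counting program and strandedness are not given in the sources used here. The labels name GRCm38 (mm10), whose positions differ from those listed, so listed positions carry no build. Promoters are from RefSeq on GRCm38.p6.

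Counts were fitted with edgeR 4.0.16 in R 4.3.3 (TMM, filterByExpr by group, quasi-likelihood F test, group as the only term), with Benjamini-Hochberg adjustment over 13005 genes and 95% intervals. Standard errors were taken as the estimate divided by the root of F. Log2 CPM had a prior count of 2. The two-sided exact permutation test ran over all 24310 splits (smallest p 4.11e-05), and the two-sided sign-flip test used log2(FPKM + 0.01). The most like genes were the 3 with the highest Spearman's rho. Of each of the 4 further lists the 3 with the smallest p and the 3 most abundant were named. The genes named from the cell type lists did not all follow this rule. For Casp1, 1 gene is not reported here. Alternatives were DESeq2 1.42.0, limma 3.58.1 voom with sample quality weights, other scalings and filters, a replicate block, a length offset (natural spline, 4 degrees of freedom), and leaving out tumors. The members, lists and tests were chosen with earlier results of these data known. Flow cytometry and proteomics were not analysed here.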

Additional observations from a re-analysis of the deposited data

Results flagged for a closer look

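In 5 of 24 groups of values tested, the highest tumor stood apart from the rest of its group by Dixon's test. For independent and normally distributed values, chance flags about 1 in 20 groups. That rate does not hold here, because the genes share the same tumors and CPM are skewed. All flags fell on cryoablation tumor 7 or control tumor 4. Cryoablation tumor 7 stood apart for Il1a (17.6 CPM, next 3.55) and for Il1b (110 CPM, next 34.8). Control tumor 4 stood apart for Il1r2 (8.41 CPM, next 4.44), Pycard (12.6, next 4.61) and Casp1 (38, next 22.7).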

How the results depend on the processing

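No alternative fit gave a member an adjusted p under 0.05, and a member had an unadjusted p under 0.05 in 1 of them (0 to 1 members when 1 tumor was left out). That member was Gsdmd, with 0.3319 without cryoablation tumor 7, where 10.1% of all genes tested had such a p. The precision is limited by 8 and 9 tumors and by low counts, down to 18 for Il1r2. The causes of the changes below were not tested. In edgeR the count of all genes at an unadjusted p under 0.05 was 639, and from 252 to 1388 when 1 tumor was left out, 325 without cryoablation tumors 2, 4 and 5, and 1312 in voom with sample quality weights (10.1% of 13005 genes). Over the larger total of 17819 genes it was 1024 (5.75%) in DESeq2 and 992 (5.57%) without a filter.

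Signs turned where differences were small. Without cryoablation tumors 2, 4 and 5 the difference in log2 CPM was 0.138 for Il1a, 0.09908 for Il1r1, 0.1916 for Il1rap, 0.02428 for Nlrp3, -0.4979 for Pycard and -0.05019 for Gsdmd, and the edgeR log2 fold change was 0.06023 for Il1r1, -0.2872 for Il1r2, 0.1706 for Il1rap, 0.01496 for Nlrp3, -0.5672 for Pycard and -0.05222 for Gsdmd. In voom it was -0.2698 for Il1a, -0.4289 for Il1r2 and -0.2271 for Pycard, and with a length offset -0.07498 for Il1r2. When 1 tumor was left out, the log2 CPM difference ranged from -0.4781 to 0.02998 for Il1a, -0.1775 to 0.2333 for Il1r2, -0.08779 to 0.285 for Pycard and -0.1317 to 0.08815 for Casp1, and the edgeR log2 fold change from -0.6347 to 0.408 for Il1a, -0.1354 to 0.2742 for Il1r2, -0.0267 to 0.4476 for Pycard and -0.1648 to 0.114 for Casp1.

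The log2 ratio of Il1b to Il1rn differed by 0.5125 to 0.8303 when 1 tumor was left out, by 0.5377 without cryoablation tumors 2, 4 and 5 and by 0.4823 without the length trend, and that of Il1r2 to Il1r1 by -0.1245 to 0.4184, -0.4132 and -0.03134. The neighbour pairs that differed per length numbered 3 to 5. Pearson's r ranged from 0.4761 to 0.6841 for Il1b and Il1rn, -0.06946 to 0.7389 for Il1b, -0.3315 to 0.3471 for Nlrp3 and -0.1273 to 0.3363 for Il1rn with the macrophage and monocyte markers, 0.4286 to 0.6842 for Casp1 and Gsdmd, and 0.4017 to 0.6496 for Il1r1 and the fibroblast markers. Without the length trend it was 0.4213 for Casp1 and Gsdmd, 0.4366 for Il1r1 and Il1rap and 0.2392 for Il1r1 and the fibroblast markers, and without cryoablation tumors 2, 4 and 5 it was 0.5018 for Il1r1 and Il1rap. The length-trend values for ratios and correlations, and leaving out a tumor for correlations and lists, were chosen after seeing the data.

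Genes at an unadjusted p under 0.05 numbered 5 of 8 in voom among the IL-1 family list (0 to 4 when 1 tumor was left out, 4 without control tumor 1), 0 to 1 among the inflammasome list, 2 of 16 in voom and 1 without a filter among the signal transduction list (0 to 2), and 1 of 17 in voom among the genes induced by IL-1 (0 to 6, 6 without cryoablation tumor 3 and 0 without cryoablation tumor 7). The share of all genes tested at this p was 4.91% in the main fit, 10.1% in voom and 5.57% without a filter. It was 9.89% without control tumor 1, 10.6% without cryoablation tumor 3 and 10.1% without cryoablation tumor 7.

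Replicate numbers are shared by the groups, but the labels do not say that they pair tumors, and the deviations of same-numbered tumors correlated from -0.51 to 0.642, over 0.1 in 4 of 8 pairs, with 2 of 8 control tumors most like their own number. With a replicate block 446 genes had an unadjusted p under 0.05, the edgeR log2 fold change was -0.1135 for Il1a and -0.01738 for Il1r2, and the log2 ratio of Il1b to Il1rn differed by 0.6809 (exact sign-flip p = 0.125).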
